A study of Mus musculus with 10 samples.

Results

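The control libraries of a study of neuronal TDP-43 and myelin were examined on their own, as a description of the RNA in GFP-sorted mouse brain cells of control mice. They are the 3 libraries labelled NC-GFP 1 to 3, of 10 libraries in the series, and were chosen by their labels. Each library is RNA of cells pooled from 3 to 4 animals, so the 3 pools are the unit of replication. The mice had the genotype CamKIIcre/-, which names no floxed TDP-43 allele, and AAV-FLEX-GFP, a virus whose GFP cassette is switched on by Cre, was placed in their dentate gyrus 1 month before sorting. The labels give brain as the tissue and name the dentate gyrus only as the injection site. The sources used here do not give the age or sex of the mice or the gates of the sort, and GFP itself was not analysed here. No groups were compared and no p-value was computed. Spread is given over the 3 pools, called pool 1, pool 2 and pool 3 after the labels. It measures the difference between pools, not between single animals.

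The CamKII promoter is best known for activity in excitatory neurons of the forebrain, among them the granule neurons of the dentate gyrus. Those neurons make synaptic proteins such as SNAP25 and the vesicular glutamate transporter VGLUT1 (Slc17a7), and the granule neurons also make the factor PROX1 and the calcium buffer calbindin (Calb1). Around them lie oligodendrocytes, which wrap axons in myelin rich in MBP, astrocytes, which clear glutamate and potassium, and microglia, the resident phagocytes. Every cell also holds small structured RNAs that work without being translated. These are parts of the signal recognition particle (7SL), the spliceosome (U1 and other snRNAs), transcriptional control (7SK), tRNA processing (RNase P) and ribosomal RNA modification (snoRNAs).

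Both a count and a length-scaled measure were deposited for each gene, and both are used below. The estimated count is the number of reads assigned to the gene. TPM, the share of transcripts, divides that number by a length and scales each library to the same total, so that levels of different genes can be set side by side. The pools held 24059553, 26310787 and 17164206 counts, and 22650, 24087 and 23672 of the 55487 genes had a count above 0. A gene at 0 in a pool could still hold up to 3 counts, which is 0.125, 0.114 and 0.175 CPM (counts scaled by the library total). That limit covers counting error only.

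Outside the mitochondrial genome, the highest mean TPM values belonged to small structured RNAs and not to messenger RNAs. The sequences of 6 small RNAs used in the findings below, not all of them among the highest, are given 5′ to 3′ as DNA letters. They were read from the GENCODE M21 transcripts (GRCm38) by the transcript identifiers in the deposited table. Rnu1a1 (chr11:87422867-87423030, plus strand) encodes U1 snRNA. Its capitals mark the bases ACTTACCT, which pair with splice sites, and the position at which Gm22513 (chr12:54696782-54696945, plus strand) differs. Snord15b (chr7:99479563-99479707, minus strand) is a C/D-type snoRNA, and capitals mark TGATGA and CTGA, the forms of its C and D boxes searched here. Snora7a (chr6:115807975-115808114, minus strand) is an H/ACA-type snoRNA, with its closing ACATTA in capitals. Gm24265 (chr5:115489459-115489599, plus strand) is annotated as an snRNA, with ATTTTTGA in capitals. Bc1 (chr7:144914470-144914637, plus strand) is a short rodent RNA known from neurons, and its runs of 9 or more A are in capitals.
Rnu1a1: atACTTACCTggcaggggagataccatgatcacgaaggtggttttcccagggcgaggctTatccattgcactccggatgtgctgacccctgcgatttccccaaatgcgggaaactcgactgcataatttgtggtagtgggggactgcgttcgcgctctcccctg
Gm22513: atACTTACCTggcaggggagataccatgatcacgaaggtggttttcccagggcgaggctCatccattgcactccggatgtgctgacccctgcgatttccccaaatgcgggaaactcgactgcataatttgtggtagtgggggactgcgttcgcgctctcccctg
Snord15b: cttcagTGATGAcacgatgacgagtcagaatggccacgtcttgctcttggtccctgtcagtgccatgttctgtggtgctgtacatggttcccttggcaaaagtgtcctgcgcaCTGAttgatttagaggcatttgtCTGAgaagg
Snora7a: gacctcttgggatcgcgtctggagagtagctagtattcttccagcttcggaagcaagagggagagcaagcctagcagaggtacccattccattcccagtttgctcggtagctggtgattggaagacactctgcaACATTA
Gm24265: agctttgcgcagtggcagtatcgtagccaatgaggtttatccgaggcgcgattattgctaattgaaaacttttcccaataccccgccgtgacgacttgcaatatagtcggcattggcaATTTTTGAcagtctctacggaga
Bc1: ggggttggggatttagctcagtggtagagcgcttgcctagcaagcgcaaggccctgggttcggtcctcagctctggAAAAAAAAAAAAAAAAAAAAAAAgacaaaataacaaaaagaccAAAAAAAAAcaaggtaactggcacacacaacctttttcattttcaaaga

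By mean TPM Rn7s1, which encodes 7SL RNA, came first, with 157299, 118031 and 137899 TPM in pools 1 to 3, or 13.8% ± 1.96 (SD, n = 3) of all TPM. It rested on 676396, 884397 and 480193 counts. Snord15b followed with 78535, 118525 and 107954 TPM, slightly above Rn7s1 in pool 2, from 5505, 14148 and 6094 counts. Both RNAs led every pool by TPM, although their counts lay far apart. Rn7sk, the 7SK RNA that holds back the elongation factor P-TEFb, had 44462, 38353 and 42547 TPM. Rpph1, the RNA of RNase P, had 8360, 9208 and 10129 TPM, and Rmrp, the RNA of the related RNase MRP, had 4679, 5941 and 5459 TPM. By TPM these 3 RNAs lay within a narrow range in all pools. By CPM they ranged more widely and were highest in pool 2. Rn7sk had 10132, 13847 and 10560 CPM, Rpph1 2700, 4615 and 3495 CPM and Rmrp 1097, 2154 and 1367 CPM. Malat1, a nuclear long noncoding RNA, had 8087, 4561 and 6868 TPM from 805745, 856012 and 553656 counts. Bc1 had 6386, 4246 and 3849 TPM from 3289, 3795 and 1612 counts. Malat1 and Bc1 thus stood at similar TPM although their counts were far apart in each pool. Of the 20 genes of highest mean TPM outside the mitochondrial genome, 11 carry only a provisional symbol.

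The motifs marked above were searched on the transcript strand of all annotated sequences of the same class. TGATGA was in 26.1% of 1507 snoRNA sequences, CTGA in 79.5% and both in 25.2%, while ACA stood within the last 8 bases of 46.8%. ACTTACCT was in 4.34% of 1383 snRNA sequences and ATTTTTGA in 1.01%. The 350 snoRNAs with both box motifs and no closing ACA held 13.5%, 20.2% and 18.3% of TPM in pools 1 to 3. The 676 with a closing ACA and without both boxes held 7.46%, 9.96% and 8.69%. The C/D-like group was the larger in each pool by TPM, with counts for 120 of its genes and for 129 of the H/ACA-like genes. It was also the larger by counts, with 31073, 77257 and 31330 against 13826, 40434 and 14628. Its lead by TPM rested on Snord15b (78535, 118525 and 107954 TPM), whose large TPM per count is described below. Without Snord15b the C/D-like group would hold less TPM than the H/ACA-like group in each pool.

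Gene classes, as the deposited table names them, divided the TPM very differently from the counts. Protein-coding genes held 23.4%, 14.8% and 20.2% of TPM, against 75.4%, 73.4% and 77.4% of counts. The snoRNAs held 22.5%, 31.6% and 28.2% of TPM from 0.228%, 0.560% and 0.331% of counts. Both small-RNA classes of the nucleus were thus prominent by TPM and rare by counts, since the snRNAs held 16.1%, 20.9% and 16.3% of TPM from 0.286%, 0.812% and 0.438% of counts. The class misc_RNA, which contains 7SL and 7SK, held 24.7%, 23.05% and 24.8% of TPM. The 2 mitochondrial ribosomal RNAs held 6.19%, 3.52% and 4.41% of TPM and 11.2%, 10.1% and 9.13% of counts. Long intergenic RNAs held 1.79% ± 0.240 of TPM, all pseudogene classes 1.26% ± 0.182, annotated miRNA genes 0.126% ± 0.0273, antisense genes 0.124% ± 0.0168 and unconfirmed TEC models 0.142% ± 0.0364 (SD, n = 3 for each). Pool 2 had the lowest protein-coding share on both scales, and the highest snoRNA and snRNA shares on both.

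**Figure D1:**
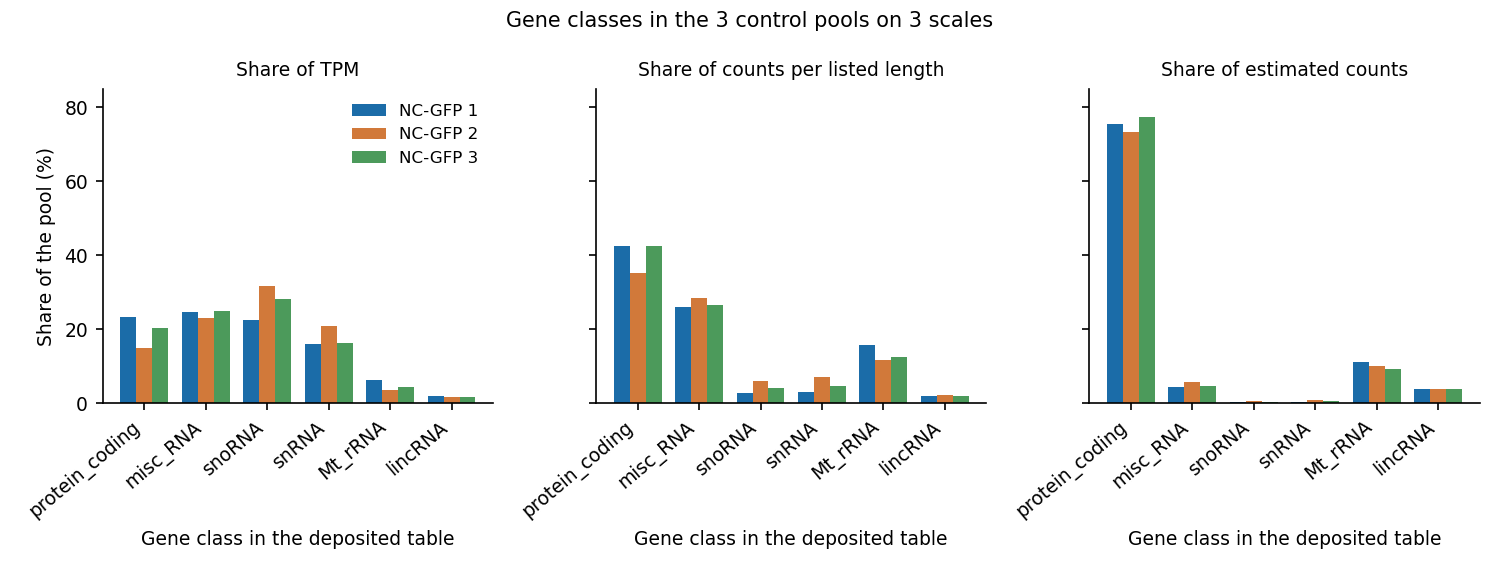
Share of each control pool held by 6 gene classes, on the scale of the deposited TPM (left), of counts divided by the listed gene length (middle) and of estimated counts (right). Bars are single pools, so there is no error bar. Protein-coding genes hold 14.8% to 23.4% of TPM but 73.4% to 77.4% of counts, and snoRNAs 22.5% to 31.6% of TPM but under 1% of counts.

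The length that stands behind each TPM value was read back from the table as the count divided by the TPM, scaled to the longer genes. Single-transcript genes of 100 to 138 bases kept about their listed length, with medians of 137.6, 135.7 and 137.9 bases. Genes of 143 to 149 bases were divided by a median of only 1.61, 1.57 and 1.56 bases, and genes of 160 to 199 bases by 11.06, 11.17 and 11.03 bases. Above 600 bases the length used was the listed one less 160, 155 and 155 bases, read as the intercept of a straight line. A narrow window of gene lengths therefore received large TPM values per read. Genes of 139 to 250 bases held 42.2%, 58.2% and 49.9% of TPM and 0.498%, 1.19% and 0.699% of counts. Within it, 1 count of Snord15b, of 145 bases, was worth 14.3, 8.38 and 17.7 TPM, and 1 count of the messenger RNA Apoe 0.0237, 0.0142 and 0.0279 TPM.

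The edge of that window lay at a different length in pool 1. Genes of 139 to 142 bases were divided by a median of 1.04 bases in pool 1 and by 147 bases in pools 2 and 3. Snora7a, of 140 bases, accordingly had 7345, 82.3 and 49.4 TPM from 326, 883 and 253 counts. Gm24265, of 141 bases, had 21837, 366 and 213 TPM from 1011, 3961 and 1099 counts. For these RNAs pool 1 was far above the others in TPM and not in counts. Scarna3a, which guides modification of snRNAs and is also 140 bases long, had 2479, 23.3 and 18.8 TPM from 110, 250 and 96 counts. With counts divided by the listed length instead, a scale added after these values were seen, the small structured RNA classes held 33.5%, 44.0% and 37.2% of each pool, against 64.7%, 76.8% and 70.6% of TPM. Protein-coding genes then held 42.5%, 35.2% and 42.4%. On that scale Rn7s1 was still the top gene, followed by mt-Rnr2, mt-Rnr1, Rn7sk and Rpph1, and snoRNAs held 2.83%, 5.95% and 3.99%.

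**Figure D2:**
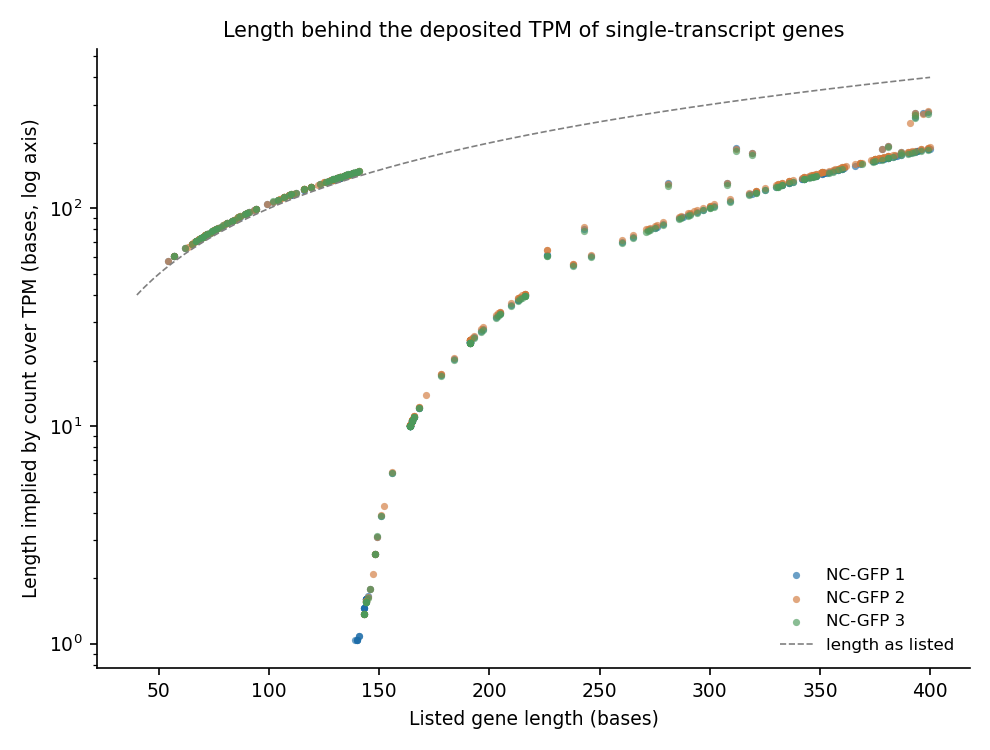
Length implied by the count over the TPM (log axis) against the listed length, for single-transcript genes of up to 400 bases with at least 50 counts, 1 point per gene and pool. In all pools points follow the listed length up to 138 bases, then drop to a median of 1.56 to 1.61 bases between 143 and 149 bases and climb again, and in NC-GFP 1 alone the drop already covers 139 to 142 bases.

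Several of the leading small RNAs share their whole sequence with other genes, so their reads can be divided among copies only by estimation. Rn7s2 is identical to Rn7s1 over all 300 bases, yet averaged 12633 TPM where Rn7s1 averaged 137743 TPM. Together the pair had 30882, 38040 and 29413 CPM. The 7 U1 genes with counts that equal Rnu1a1 in sequence had 61608, 87682 and 74479 TPM in sum. Their division among copies differed by pool, as Rnu1a1 had 1798, 15376 and 1768 TPM and its identical copy Gm26444 had 52799, 20681 and 65426 TPM. Gm22513 differs from Rnu1a1 by T60C, counted from 1 at the 5′ end, and had 31870, 49334 and 40944 TPM. In all, 104 of the 788 small RNA genes with counts fell into 22 groups of identical sequence, which held 38.6%, 33.7% and 35.4% of small-RNA TPM. Levels of single copies are uncertain for this reason, and the sums over identical copies do not depend on that division. Near-identical genes such as Gm22513 can still share reads with these copies. Likewise Rn7sk equals Gm24447 over the first 241 bases, so its level also depends on how reads were divided.

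Messenger RNA was spread over many genes. TPM of at least 1 in each pool was found for 12007 genes, of which 10560 were protein-coding, from 21936 protein-coding genes in the table. A further 4854 protein-coding genes had 0 counts in every pool. By mean TPM, 7429 nuclear protein-coding genes lay between 1 and 10, 3770 between 10 and 100, 191 between 100 and 1000 and 5 at or above 1000. The median over all 21923 nuclear protein-coding genes was 1.23 TPM and the 90th percentile 17.0 TPM. Over all gene classes the top 100 genes held 77.5%, 84.2% and 80.1% of TPM. Among nuclear protein-coding genes alone, the top 100 held 21.8%, 22.4% and 21.8%, and 897, 866 and 907 genes held 50% of their TPM. Nuclear messenger RNA was thus far less concentrated than the TPM column as a whole.

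The nuclear protein-coding genes above 1000 TPM included genes known from microglia and astrocytes and from general cell functions. Apoe, the lipid carrier made by astrocytes and activated microglia, had 2845, 1769 and 1925 TPM. Ctss, a lysosomal protease of microglia, had 1472, 1210 and 1704 TPM. B2m, the light chain of MHC class I, had 1507, 1078 and 1461 TPM. The order of the pools depends on the scale for B2m, which was highest in pool 1 by TPM and lowest there by rescaled TPM (7336, 8091 and 7984). Fth1, the ferritin heavy chain that stores iron, had 1579, 909 and 1326 TPM. Fth1 was highest in pool 1 and lowest in pool 2 by TPM, rescaled TPM and CPM. Below 1000 TPM stood Cd74, the invariant chain of MHC class II (944 ± 141 TPM), Cst3, a protease inhibitor (943 ± 113), Actb (883 ± 180), Eef1a1 (880 ± 146), Tmsb4x, which binds actin (684 ± 105), Trf, the iron carrier made by oligodendrocytes (643 ± 176), Ctsd (623 ± 119) and Mbp (588 ± 190; SD, n = 3 for each). No gene made mainly by neurons was among the 30 nuclear protein-coding genes of highest mean TPM.

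Pool 2 gave low TPM for nearly every messenger RNA. Nuclear protein-coding genes held 20.5%, 13.3% and 18.3% of TPM in pools 1 to 3, so a gene with the same share of messenger RNA in each pool has its lowest TPM in pool 2. Of 3979 protein-coding genes with mean TPM of at least 10, 92.9% had their lowest value in pool 2. With TPM rescaled so that nuclear protein-coding genes alone make up the TPM total, a setting added after seeing the data, 38.8% did, and with CPM 39.8% did. An order of pools in raw TPM therefore need not hold by rescaled TPM.

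Cell types were read from 19 lists of marker genes. In pooled RNA, fewer cells of a type and less RNA per cell cannot be told apart. By median member, mature oligodendrocytes had the highest list, with all 20 markers above 10 TPM, a median member of 122 TPM and a sum of 6456, 3137 and 4809.5 TPM. Microglia came close, with all 20 markers above 10 TPM and a median of 98.0 TPM. Their sums of 4504, 3735 and 5122 TPM were above those of oligodendrocytes in pools 2 and 3 and below in pool 1, and without pool 1 the mean sums were 4429 TPM for microglia and 3973 TPM for oligodendrocytes. Astrocytes had 16 of 16 markers above 1 TPM, a median of 45.3 TPM and sums of 921, 763 and 1011 TPM. For comparison, 52.0% of all nuclear protein-coding genes reached 1 TPM and 18.1% reached 10 TPM. All 3 glial lists were therefore complete and well above the typical gene in every pool.

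Among the oligodendrocyte markers, Mbp had 782, 402 and 580 TPM, Trf had 775, 443 and 710 TPM, and Apod had 716, 432 and 529 TPM. The myelin genes Mobp (282 ± 91.6), Mal (275 ± 84.2), Cnp, Mag and Cldn11 followed, and the lowest member, the gap junction gene Gjb1, still reached 13.7 ± 4.84 TPM (SD, n = 3). The 13 transcription factors of the lineage were all above 1 TPM, led by Myrf (64.1, 36.2 and 57.0 TPM), Sox10 (49.3, 28.5 and 44.7 TPM) and Olig1 (50.1, 24.2 and 36.5 TPM). Olig1 serves precursors and mature cells alike. Precursor markers were far below mature ones, and 5 of 13 reached 1 TPM, beside 52.0% of all nuclear protein-coding genes. The median member was at 0.877 TPM, beside 1.23 TPM for all of these genes. The defining receptor Pdgfra had 0.599, 0.264 and 0.275 TPM. The mature list exceeded the precursor list by 96.1, 92.6 and 95.0 times in summed TPM, where Olig1 gave 73.1% of the precursor sum.

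Among the microglial markers, Ctss led, and high levels were also found for the complement genes C1qa (466, 407 and 557 TPM), C1qb (406, 351 and 454 TPM) and C1qc and the growth factor receptor Csf1r (370, 333 and 429 TPM). By rescaled TPM, C1qa had 2266, 3054 and 3046, C1qb had 1978, 2631 and 2482, and Csf1r had 1802, 2499.7 and 2343, so these were lowest in pool 1. The lowest member, Fcrls, averaged 26.9 TPM. Border macrophage markers were much lower than microglial ones, with 6 of 10 above 1 TPM and a median of 2.03 TPM. They were not below the typical gene, as these values were 52.0% and 1.23 TPM for all nuclear protein-coding genes. The microglial sum was 108, 152 and 168 times that of border macrophages. The 12 microglial transcription factors were all detected, with Mef2a (69.5, 40.3 and 68.0 TPM) first, Mef2c also high and the lineage factor Spi1 at 21.9, 17.7 and 30.9 TPM. Astrocytes were led by the glutamate transporter Slc1a2 (147, 119 and 166 TPM), the chaperone Clu (132, 95.3 and 121 TPM) and the second glutamate transporter Slc1a3 (109, 83.9 and 110 TPM). The intermediate filament gene Gfap was near the bottom of that list with 11.3, 5.29 and 8.81 TPM. The 11 astrocyte transcription factors were all above 1 TPM, led by Nfix, Zbtb20 and Nfia, which other cells also express.

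Neuronal genes stood near the median of all nuclear protein-coding genes, detected or not, and far below the glial lists. The driver line and the injection site, however, aim at neurons. Of 18 general neuronal markers, 9 reached 1 TPM, beside 52.0% of all nuclear protein-coding genes. The median member was at 1.02 TPM, beside 1.23 TPM for all of these genes and 6.47 TPM for those of them at 1 TPM or more. The sum of the neuronal markers was 74.1, 52.7 and 66.2 TPM. Map2, which stabilises dendritic microtubules, led with 23.2, 18.6 and 30.9 TPM. Thy1, which T cells also carry, had 17.8, 13.6 and 8.99 TPM, and Tubb3 had 11.4, 8.87 and 10.7 TPM. Below these 3 the list dropped steeply in every pool. Snap25, of the synaptic fusion machinery, had 3.24, 1.40 and 1.79 TPM from 195, 165 and 81 counts. Syt1, the calcium sensor of release, had 0.422, 0.255 and 0.309 TPM, and the neurofilament gene Nefl had 0.218, 0.133 and 0.285 TPM. Rbfox3, which encodes NeuN, had 0.345, 0.283 and 1.504 TPM from 29, 63 and 13 counts. For Rbfox3 the pool with the fewest counts had the highest TPM, so its TPM order cannot be read as an order of abundance. The oligodendrocyte sum was 87.1, 59.5 and 72.7 times the neuronal sum, the microglial sum 60.8, 70.9 and 77.4 times and the astrocyte sum 12.4, 14.5 and 15.3 times. The defining neuronal markers thus go against a label of sorted neurons in each of the 3 pools. Whether this comes from the gate, from the RNA content of the cells or from another step was not tested.

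Lists of neuron types had median members of 0.426 TPM for excitatory, 0.271 TPM for inhibitory, 1.14 TPM for dentate granule and 1.175 TPM for immature neurons. Over all nuclear protein-coding genes the median was 1.23 TPM, and 52.0% reached 1 TPM. In the excitatory list, 3 of 12 reached 1 TPM, with Rorb first at 5.38, 4.05 and 4.72 TPM, a gene that astrocytes also express. Slc17a7 had 5, 26 and 0 counts, or 0.0640, 0.117 and 0 TPM. Camk2a, the gene whose promoter gave the driver its name, had 0.830, 1.13 and 0.891 TPM from 147, 284 and 138 counts. In the list of dentate granule neurons, 7 of 14 reached 1 TPM, with Dock10, Prox1 and Stxbp6 first. Dock10 (81.7, 38.6 and 60.6 TPM) and Prox1 (18.3, 11.4 and 18.5 TPM) were high, and both are also made by oligodendrocyte-lineage cells. Some members more particular to granule neurons were near 0. Among them were Calb1 at 2, 22 and 3 counts, C1ql2 at a mean of 0.0293 TPM and Dsp, the lowest of the list, at 0.0210 TPM. Among 15 inhibitory markers 3 reached 1 TPM, and Gad1, which makes the transmitter GABA, had 1.61, 0.769 and 0.770 TPM. Vip, a neuropeptide gene, had 0 of 67534546 counts over the 3 pools, which allows up to 0.0444 CPM. The immature neuron list was carried by Stmn1 (167, 60.9 and 110.3 TPM) and Tubb2b (12.9, 11.5 and 14.3 TPM), and the cell-type defining Dcx had 1.96, 1.54 and 1.66 TPM.

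Lists of neuronal function likewise held shares near or above that of all nuclear protein-coding genes, of which 52.0% reached 1 TPM. Of 20 genes of presynaptic release, 14 reached 1 TPM and 2 reached 10 TPM, with Vamp2, a fusion protein of vesicles in many cells, at 30.8, 19.96 and 27.2 TPM and Sv2a at 19.7, 8.96 and 15.1 TPM. Of 15 glutamate receptor genes, 7 reached 1 TPM, led by Grm3 (32.6, 19.6 and 25.6 TPM), Gria2 (16.5, 15.6 and 19.1 TPM) and Grik2 (22.4, 10.9 and 14.7 TPM). Grm3 and Gria2 are also known from astrocytes and oligodendrocyte-lineage cells. The obligatory NMDA receptor subunit Grin1 had 0.150, 0.156 and 0.0350 TPM. Of 13 neuronal transcription factors, 6 reached 1 TPM, led by Mef2c (45.1, 28.4 and 35.4 TPM), which microglia share, Zbtb18 and the activity-induced Nr4a1. Tardbp, the gene that encodes TDP-43, had 69.1, 39.0 and 58.3 TPM.

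**Figure D3:**
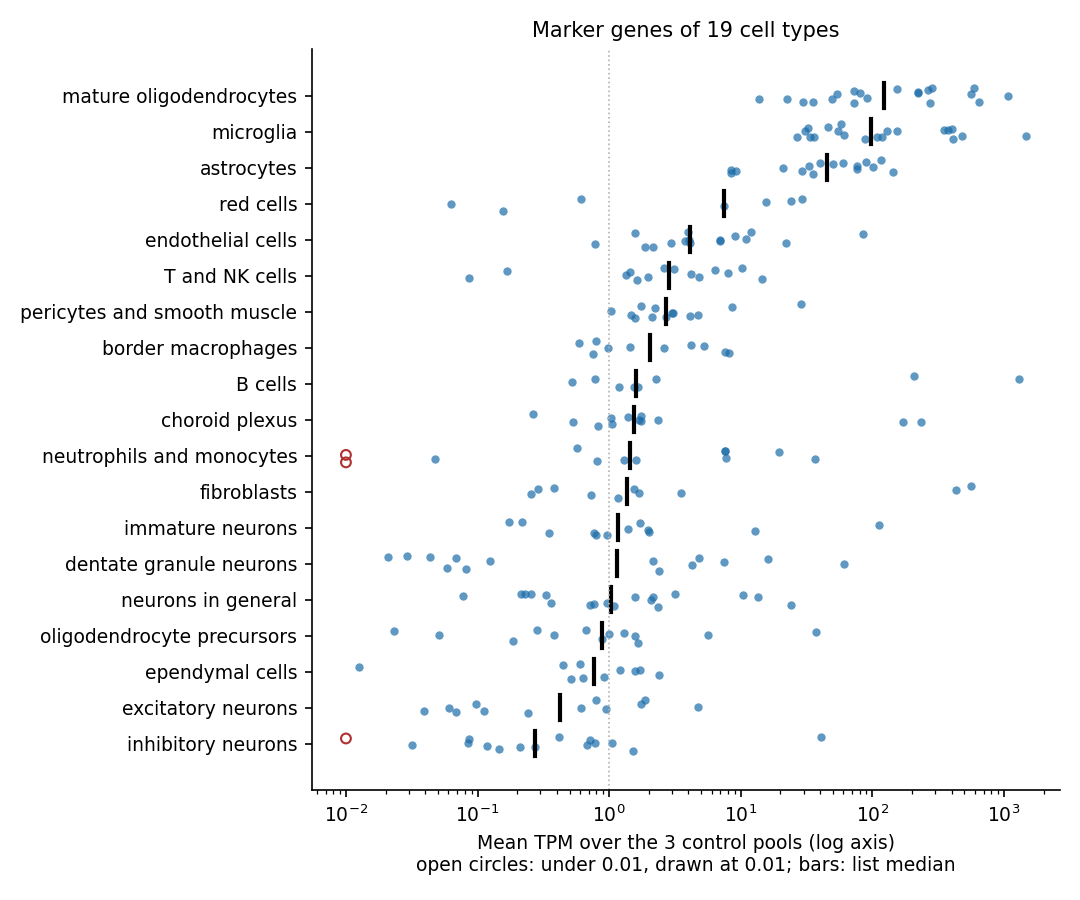
Mean TPM over the 3 control pools (log axis) of each marker gene, 1 point per gene, in 19 lists sorted by their median, which is the black bar. Oligodendrocyte, microglial and astrocyte lists lie to the right with medians of 122, 98.0 and 45.3 TPM, and the general neuronal list is centred at 1.02 TPM.

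Vascular and blood lists lay between these extremes and often rested on 1 or 2 broad genes. The share of all nuclear protein-coding genes at 1 TPM, 52.0%, and their median of 1.23 TPM serve as the comparison. Of 16 endothelial markers, 15 reached 1 TPM with a median of 4.08 TPM, led by Bsg (101, 77.3 and 76.6 TPM), a transporter partner found in many cells, and the glucose transporter Slc2a1 (28.6, 16.2 and 21.9 TPM). The tight junction gene Cldn5 averaged 6.94 TPM. Pericyte and muscle markers had 13 of 13 above 1 TPM and a median of 2.71 TPM, led by Vtn. Fibroblast markers summed to 1427, 686 and 886 TPM, but Apod and Ptgds, both also made by oligodendrocytes, gave nearly all of it, and the collagen gene Col1a1 averaged 0.723 TPM. Choroid plexus markers were led by Enpp2 (344, 138 and 225 TPM), which oligodendrocytes also make, and by Ttr (293, 108 and 111 TPM), the thyroid hormone carrier. The median choroid plexus marker was at 1.54 TPM and the water channel gene Aqp1 averaged 0.264 TPM. Ependymal markers stayed below 3 TPM. Of 14 T and NK cell markers, 12 reached 1 TPM, with the receptor constant gene Trac at 16.2, 17.0 and 10.5 TPM and Cd3g at 13.3, 10.5 and 6.74 TPM. The 12 genes of neutrophils and monocytes were led by Ly6c2 (62.7, 22.9 and 24.2 TPM), and Ly6g and Elane had 0 counts in every pool.

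Antibody genes differed widely between the pools. The 264 annotated immunoglobulin segments held 104914, 84113 and 14851 counts, or 0.436%, 0.320% and 0.0865% of the pools. A further 4 segments, of class IG_LV_gene, had 0 counts. Igkc, the constant part of kappa light chains, had 2533, 1017 and 341 TPM. Ighm, the constant part of IgM, had 442, 138 and 43.9 TPM. Pool 1 was highest and pool 3 lowest for both, also by rescaled TPM and CPM. Of the switched isotypes, Ighg2c was more even at 317, 216 and 146 TPM, while others differed more widely, with Ighg2b at 80.2, 125 and 0.815 TPM, Igha at 129, 55.6 and 0.592 TPM and Ighg1 at 59.8, 10.5 and 0 TPM. Ighg3 had 31.3, 0.139 and 34.1 TPM, so no order of the pools held for all isotypes. By counts, Ighm made up 50.6%, 32.9% and 26.5% of heavy chain constant reads and Ighg2c 25.3%, 35.6% and 59.1%.

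Jchain, whose protein joins secreted IgM and IgA, had 131, 45.3 and 9.65 TPM from 6575, 3897 and 390 counts. Of other genes of antibody-secreting cells, Xbp1, which many secretory cells use, had 37.7, 19.998 and 26.6 TPM. Lower levels were found for Mzb1 at 4.13, 2.49 and 0.791 TPM and the receptor gene Tnfrsf17 at 2.02, 0.722 and 0.763 TPM. Of 8 B cell markers, Igkc and Ighm among them, 6 reached 1 TPM, beside 52.0% of all nuclear protein-coding genes. Their median was 1.60 TPM, beside 1.23 TPM for all of these genes, and the surface gene Ms4a1 was the lowest member at 0.520 TPM. Igkc and Ighm were thus far above the median of this list. The counts of single variable segments differed between pools. Of 218 variable segments in the table, 44, 42 and 10 had at least 50 counts, from totals of 22383, 19133 and 3343 variable-segment counts. Of 66 such segments in any pool, 4 reached 50 counts in all 3 pools and 40 in exactly 1. With far fewer such counts in pool 3, a fixed cut of 50 limits this overlap, so it does not measure shared use. Igkv12-44 had 2066, 0 and 1160 counts and Ighv1-12 had 664, 2611 and 0 counts. The leading segment held 9.23%, 14.0% and 34.7% of all variable-segment counts in pools 1 to 3. Related V segments share sequence, so the division of reads among them is uncertain.

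**Figure D4:**
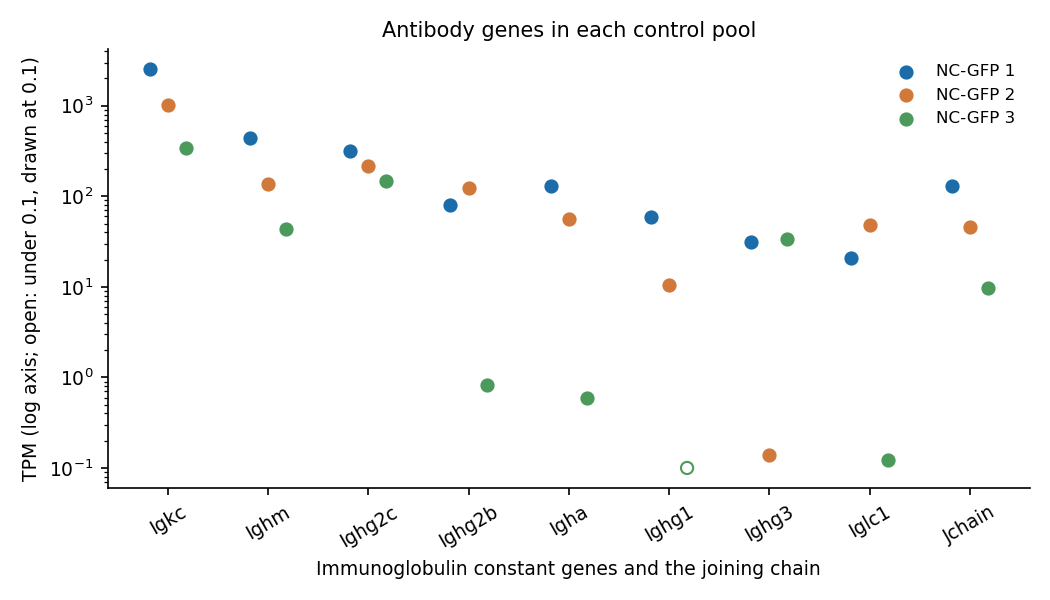
TPM (log axis) of 8 immunoglobulin constant genes and of Jchain in each control pool, 1 point per pool. Igkc ranges from 341 to 2533 TPM and Jchain from 9.65 to 131 TPM, and Ighg2b, Igha, Ighg1 and Iglc1 are under 1 TPM in NC-GFP 3 only.

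Lists from other functions described the state of the cells. For comparison, 52.0% of all nuclear protein-coding genes reached 1 TPM and 18.1% reached 10 TPM. Lysosomal genes were all 22 above 10 TPM with a median of 94.3 TPM, led by Ctss, Cst3 (973, 819 and 1038 TPM) and Ctsd (629, 501 and 739 TPM). Antigen presentation had 15 of 15 above 1 TPM and a median of 85.2 TPM, with the MHC class I genes H2-K1 (598, 405 and 559 TPM) and H2-D1 (585, 418 and 538 TPM) and the class II genes H2-Ab1 (304, 300.05 and 358 TPM) and H2-Aa. Interferon-response genes had 23 of 23 above 1 TPM and a median of 31.0 TPM, among them Ifit3 (116, 64.8 and 89.1 TPM) and Igtp. Genes linked to immunity were therefore detected broadly in these control pools. Of 19 genes known from disease-associated microglia all reached 1 TPM, but Apoe gave 59.5% of their sum, Spp1 had 12.8, 4.50 and 16.9 TPM and Lpl averaged 4.57 TPM. Complement genes had 14 of 15 above 1 TPM, and after the C1q genes C4b had 158, 96.7 and 149 TPM and C3 had 33.5, 27.3 and 46.6 TPM.

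Immediate early genes switch on within minutes of a stimulus and also of cell handling. Of the 25 listed, 22 were above 1 TPM, beside 52.0% of all nuclear protein-coding genes, and the median was 11.2 TPM. Fos had 132, 88.7 and 111 TPM, Zfp36 had 115, 82.0 and 118 TPM and Jun had 69.7, 47.4 and 69.7 TPM. The neuron-specific member Npas4 had 0.0240, 0.0860 and 0.137 TPM, and Egr4 had 0 counts in every pool. The list was thus high in genes that all cells use and near 0 in Npas4 and Egr4. Heat shock genes had 14 of 14 above 1 TPM and a median of 35.4 TPM, led by Hsp90ab1 (527, 257 and 327 TPM), Hspa8 (442, 261 and 325 TPM) and Hsp90aa1 (326, 144 and 180.01 TPM), while the inducible Hspa1a had 28.8, 36.4 and 40.6 TPM. The part of tissue handling in these levels was not tested. Cell division genes had 10 of 18 above 1 TPM and a median of 1.15 TPM. Both lay near the values for all nuclear protein-coding genes, 52.0% and 1.23 TPM. Only Pcna had a mean above 10 TPM (18.6, 9.16 and 15.9 TPM).

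Metabolic and housekeeping lists were complete, where 52.0% of all nuclear protein-coding genes reached 1 TPM. Cytosolic ribosomal protein genes were all 45 above 10 TPM with a median of 114 TPM, led by Rplp1 (609, 526 and 570.3 TPM), Rplp2 and Rps24. Nuclear subunits of oxidative phosphorylation had 31 of 31 above 1 TPM and a median of 26.8 TPM, led by Cox6c, Atp5b and Atp5h. The 13 proteins encoded by the mitochondrial genome held 2.85%, 1.44% and 1.89% of TPM, and their top member mt-Atp8, of 204 bases, had 10231, 4952 and 6399 TPM from 14102, 11879 and 7112 counts, against 136206, 129785 and 83211 counts of mt-Co1. Here 1 count of mt-Atp8 was worth 0.726, 0.417 and 0.900 TPM and 1 count of mt-Co1 0.0194, 0.0113 and 0.0235 TPM. Cholesterol synthesis had 19 of 19 above 1 TPM and a median of 5.77 TPM, led by Msmo1 (39.8, 26.7 and 38.5 TPM) and Hmgcs1 (25.6, 16.5 and 26.4 TPM). Enzymes of myelin galactolipids and sphingolipids had 15 of 15, led by Ugt8a (70.4, 26.6 and 50.9 TPM), Cers2 and Fa2h. Iron genes had 10 of 10, dominated by Fth1, Trf and the ferritin light chain Ftl1 (379, 237 and 315 TPM). The list of lipid carriers and the amyloid pathway had 16 of 16, with Apoe, Cst3 and Itm2b first and the amyloid precursor gene App at 308, 158 and 246 TPM. Of 15 RNA-binding and other genes linked to amyotrophic lateral sclerosis all reached 1 TPM, led by Hnrnpa2b1 (285, 168 and 236 TPM) and Ewsr1. The 16 widely used reference genes all had a mean of at least 1 TPM, with B2m and Actb highest. Of 19 long noncoding RNAs 15 reached 1 TPM, with Malat1 at 92.4% of their sum, Snhg1 (157, 223 and 199 TPM) and Gas5 next and the neuronal Meg3 at 4.40, 5.98 and 2.26 TPM.

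Sex-linked genes gave 1 pattern in all pools. Xist, the RNA that silences 1 X chromosome in females, had 0, 3 and 0 counts, and its antisense partner Tsix had 0, 0 and 1. The Y-linked genes Eif2s3y (31.5, 11.95 and 17.7 TPM), Ddx3y (14.6, 8.32 and 14.8 TPM), Uty and Kdm5d were detected in every pool, while Usp9y had 0 counts.

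The spread among pools was small for most messenger RNAs once the difference in scale was removed. For the 11395 nuclear protein-coding genes with mean TPM of at least 1, the median coefficient of variation (SD over mean) was 0.264 by TPM, 0.156 by rescaled TPM and 0.121 by CPM, against 0.0400 that counting alone would give. In the same order it was 0.250, 0.117 and 0.0899 for genes of 10 to 100 TPM, with counting error at 0.0235. The spread therefore exceeded counting error at every level of abundance. The common biological coefficient of variation, estimated by edgeR on 16568 genes that passed its low-count filter, was 0.228. Across nuclear protein-coding genes, log2(TPM + 1) correlated between pools at 0.959 to 0.966 (Pearson's r), where genes are not independent replicates. Of the 3979 genes with mean TPM of at least 10, the highest value was at least 2 times the lowest in 502 (12.6%) by TPM, in 79 (1.99%) by rescaled TPM and in 24 (0.603%) by CPM.

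**Figure D5:**
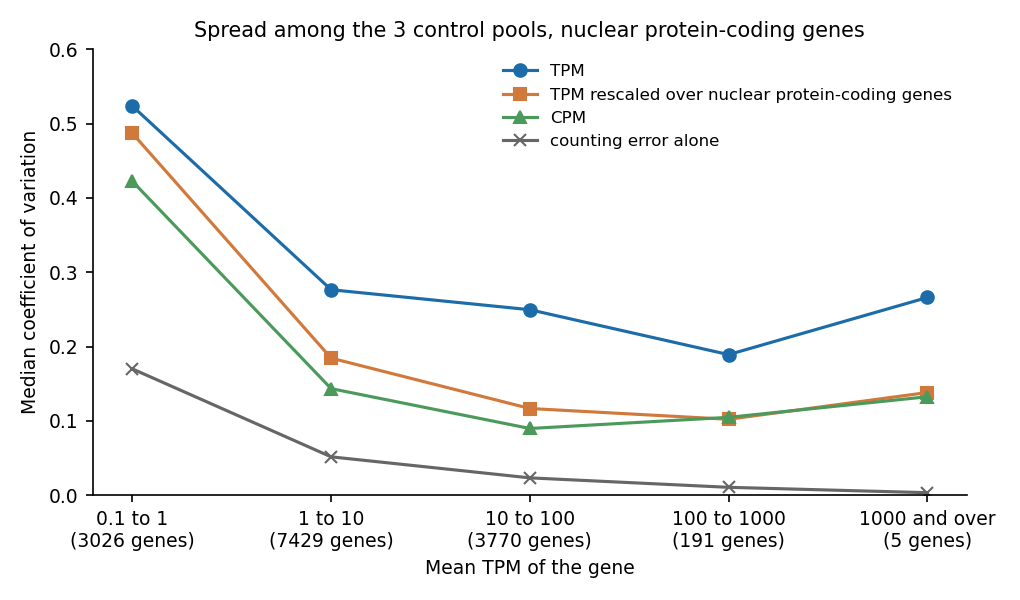
Median coefficient of variation over the 3 control pools for nuclear protein-coding genes in 5 classes of mean TPM, by TPM, by TPM rescaled over nuclear protein-coding genes, by CPM and from counting error alone. Between 10 and 100 TPM the 4 values are 0.250, 0.117, 0.0899 and 0.0235.

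Cell-type lists differed in how evenly the pools held them. By rescaled TPM, the oligodendrocyte list had 31431, 23535 and 26282 and the microglial list 21927, 28024 and 27991. Pool 1 was thus the highest in oligodendrocyte marker RNA and the lowest in microglial marker RNA, and the ratio of the first list to the second was 1.43, 0.840 and 0.939. Astrocytes had 4483, 5726 and 5525, and the microglial sum stayed at 4.89, 4.89 and 5.07 times the astrocyte sum. General neuronal markers had 361, 395 and 361.5. Between the highest and lowest pool these 4 sums differed by 1.10 to 1.34 times, and that of immature neurons by 1.52 times. Lists of blood-borne cells differed by 6.84 times for B cells, 6.09 times for red cells and 2.12 times for T and NK cells. The B cell figure largely restates the antibody genes above, as Igkc gave 85.7% of that list's mean TPM sum. Its median member had 3.29, 1.01 and 0.653 TPM. Neutrophil and monocyte markers differed by 2.05 times by rescaled TPM and by 1.31 times by CPM, below the 1.39 times of oligodendrocytes by CPM. Choroid plexus markers differed by 1.70 times and ependymal markers by 1.94 times. Pool 1 was highest for B cells and choroid plexus, and pool 2 for red cells and T cells, so no pool led every list.

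The 15 protein-coding genes of widest range among those with mean TPM of at least 10 fell into distinct kinds. Jchain came first with a ratio of 12.4 by TPM and 12.05 by CPM. The alpha-globin genes Hba-a2 (22.3, 55.7 and 9.15 TPM) and Hba-a1 (9.20, 31.6 and 5.58 TPM), which share reads, were highest in pool 2, as was the beta-globin gene Hbb-bs (14.6, 44.7 and 12.8 TPM). These are genes of blood cells, and their counts moved with their TPM. Mettl26 had 5.12, 58.4 and 45.5 TPM from 257, 5195 and 1919 counts, with a ratio of 16.9 by CPM. Gm10800 (96.0, 85.9 and 502 TPM) and Gm10801 (12.2, 17.8 and 67.4 TPM), neighbouring models on chromosome 2 with fractional counts, were highest in pool 3. Il1rn, which blocks interleukin 1, had 1153, 361 and 391 counts and the cytoskeletal gene Anln 5792, 2700 and 3215 counts, both highest in pool 1. Other members were wide in TPM and not in counts. Auts2 had 11.4, 6.51 and 77.8 TPM from 1772, 1907 and 1151 counts, a ratio of 10.5 by TPM and 1.14 by CPM. Cbs had 36.0, 5.74 and 14.4 TPM from 914, 777 and 784 counts. Of the 15, 9 had a CPM ratio of at least 2, and 4 had one under 1.5. The remaining members were Kctd13, Hemk1, Svbp, Adamtsl1 and Mrps6, with TPM ratios of 3.34 to 3.87.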

How the data were processed

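The 3 NC-GFP libraries were read from the deposited table of 55487 genes by column name. Per the labels' protocols, 1 ng of total RNA from sorted cells entered a stranded SMART-Seq library. Reads were handled with DRAGEN on GRCm38/mm10, per the submitters' processing notes. Its version, the annotation release and the strand setting of the counts are each not given in the sources used here. The authors' deposited estimated counts are not normalized, and 5.68% of those used here are not whole. The authors' deposited TPM values are scaled by them for length and library total, per the file headers. Gene classes, lengths and coordinates are those of the deposited table. No sample was left out. The table used 114 symbols more than once, and for the lists the row with most counts was taken.

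Means, SDs, shares and list sums were computed in Python 3.11.15 (pandas 2.3.3, numpy 2.4.6, scipy 1.17.1). CPM used totals scaled by TMM, and the common biological coefficient of variation came from edgeR 4.0.16 (R 4.3.3) on rounded estimated counts, with an intercept only. DESeq2 1.42.0 gave size factors for 1 alternative. Ratios of highest to lowest pool used a pseudocount of 1. The length behind TPM was fitted on single-transcript genes with at least 50 counts. Both calculations were tested on simulated data. Chi-square over its degrees of freedom was 26.0 to 46.8 between pools, so none is a duplicate.

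The 669 genes of the 19 marker and 26 functional lists (2 not found in the table) were drawn from memory, and members and lists were chosen with earlier results of these data known. Named are the most abundant genes overall and per class, the leading members of each list and those at 0, the 15 genes of widest range, and Tardbp, Camk2a and Prox1; some items under this rule are not reported here. Antibody and further list genes, and small RNAs with provisional symbols, were named after their values were seen. GENCODE M21 held 140751 of the 142699 transcript identifiers listed, and 3525 of 3527 small RNAs had a sequence there, all of the listed length. Rescaled TPM, counts per listed length, leaving out transcripts of 139 to 250 bases and restricting the edgeR estimate to nuclear protein-coding genes were added after seeing the data.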

Additional observations from a re-analysis of the deposited data

How the results depend on the processing

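The number of detected genes was 6041 with TPM of at least 5 in each pool, against 12007 at 1. The share of TPM in the top 100 genes, 80.6%, became 33.9% by counts, 62.3% by counts per listed length and 66.7% without transcripts of 139 to 250 bases. The protein-coding share of 19.5% became 75.4%, 40.02% and 37.3% in the same order, and the mitochondrially encoded share of 2.06% became 3.50% by counts per listed length. Mean list sums of 4801, 4454, 898 and 64.3 TPM (oligodendrocytes, microglia, astrocytes, neurons) were 27083, 25981, 5245 and 373 as rescaled TPM, and the medians of their members within each pool averaged 123, 97.2, 45.3 and 1.09 TPM. Without its top member, the sum was 2992 for microglia, 754 for astrocytes and 40.1 for neurons. The biological coefficient of variation of 0.228 was 0.386 without a filter, 0.204 at CPM of at least 1 in each pool, 0.189 for nuclear protein-coding genes and 0.215 to 0.250 when single pools were left out. The median coefficient of variation of TPM over all classes, 0.275, was 0.432 without a filter, 0.136 by CPM and 0.172 by rescaled TPM. It was 0.155 to 0.323 when single pools were left out, lowest without pool 2. Of the 15 genes of widest range, 3 were shared with the list made at mean TPM of at least 1, 8 with that by CPM and 9 with that by rescaled TPM. Depth and the number of pools limit genes of 0.1 to 1 TPM, where counting error alone gave a median coefficient of variation of 0.170. No paired analysis was possible because no groups were compared and no result comes from a test.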
